A study of Caenorhabditis elegans with 8 samples.

Results

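VP303 and NR350 are 2 C. elegans strains in which tissue-restricted RNAi rests on the gene rde-1, and they were set against N2 and TU3401, in which it does not. The members of this comparison are 4 arrays, 2 of VP303 and 2 of NR350, of the 8 in the series, and the other 4 arrays are those of N2 and TU3401. Genes were described by the order of the strain means: a feature counted as separated where both VP303 and NR350 lay above both N2 and TU3401, or both lay below them. Of 27792 features, 9237 (33.2%) were separated.

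The arrays, of the Affymetrix type C. elegans Gene 1.0 ST, measured total RNA of whole animals, with a single array per strain and RNAi treatment. Per the labels, RNAi acts in the intestine of VP303, in NR350 in muscle, in TU3401 in neurons and in wild-type N2 in the whole body. All animals were fed bacteria for ash-2 RNAi or control RNAi for 3 days, starting as eggs and ending as young adults, at 20 °C. VP303 and NR350 are commonly described as rde-1 mutants in which a promoter active in the intestine (nhx-2) or in muscle (hlh-1) drives a wild-type copy of rde-1, beside the markers rol-6 in VP303 and sur-5 in NR350. TU3401 is commonly described as a sid-1 mutant with sid-1 driven in neurons by the unc-119 promoter and a myo-2 marker. The sources used here name no alleles. Each strain is 1 line and no label names separate cultures, so a difference between the strain pairs cannot be told apart from whatever else the lines carry, and the p-values measure only the spread between these arrays.

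RNA interference in C. elegans starts when Dicer cuts double-stranded RNA into small RNAs. RDE-1 is the Argonaute protein that binds these primary small RNAs and leads to a target mRNA, on which RNA-dependent RNA polymerases then make secondary small RNAs. SID-1 is a channel that lets double-stranded RNA enter cells. A strain without RDE-1 is resistant to RNAi in every tissue where the gene is not put back, while a sid-1 strain keeps the Argonaute but takes up little double-stranded RNA.

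The deposited values are intensities, given here as log2. The floor of the scale lies near an intensity of 18, so dim genes show compressed differences, and 8648 features (31.1%) had a mean log2 above 5, an intensity of 32. The ash-2 signal was higher on the array labelled ash-2 than on the control array of every strain (7.87 against 7.21 in VP303, 8.07 against 7.19 in NR350, 7.52 against 7.23 in N2 and 7.63 against 6.94 in TU3401), against the direction of a knockdown, and for that reason the treated arrays are named by their label alone, as arrays labelled ash-2. The 8 arrays are bulk samples, in which fewer cells of a type and less RNA per cell cannot be told apart.

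Some genes of the constructs and markers stood out in a single strain rather than in a pair. These were rde-1 and rol-6 in VP303, sur-5 in NR350 and sid-1 in TU3401. The promoter donors nhx-2, hlh-1 and unc-119 and the marker myo-2 were not highest in the strain described as carrying them. On the arrays labelled ash-2, rde-1 read 8.4 in VP303 and 5.69 in NR350, against 5.94 in N2 and 5.59 in TU3401, and on the control arrays it read 8.25 in VP303 and 5.63 in NR350, against 5.81 in N2 and 5.46 in TU3401. VP303 was high, while NR350 lay between N2 and TU3401, so rde-1 itself was not separated (difference 1.30, SE 0.59, limma adjusted p = 0.752). The channel gene sid-1 read 6.88 in VP303 and 7.41 in NR350, against 7.65 in N2 and 9.33 in TU3401, on the arrays labelled ash-2. It met the order of strain means with a gap of only -0.19, which lay between NR350 and N2. TU3401 stood far above the other strains, and the mean difference between the pairs was -1.28 (limma adjusted p = 0.597).

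The cuticle collagen rol-6 read 12.08 in VP303 and 5.39 in NR350, against 4.7 in N2 and 4.65 in TU3401, on the arrays labelled ash-2. Its separation (gap 0.79, difference 4.16, SE 1.43, adjusted p = 0.623) thus joined a very high VP303 to an NR350 much closer to N2 and TU3401, which lay near the floor. The marker sur-5 was highest in NR350, at 12.05 on the array labelled ash-2 and 12.04 on the control array, against 8.09 to 8.77 on the other 6 arrays (gap 0.28, adjusted p = 0.643). The promoter donor nhx-2, an intestinal sodium-proton exchanger gene, lay between 5.58 and 6.55 on the arrays of VP303 and NR350, against 5.21 to 5.58 in N2 and TU3401 (difference 0.60, SE 0.19, adjusted p = 0.593). The other donors were not separated: hlh-1, the muscle MyoD gene, differed by 0.02, unc-119 by -0.06 and myo-2, the pharyngeal myosin, by 0.19.

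Y47H10A.5, described as a target of RDE-1 loaded with the microRNA miR-243, read 4.66 in VP303 and 7.78 in NR350, against 4.61 in N2 and 4.71 in TU3401, on the arrays labelled ash-2, and 4.57 in VP303 and 7.48 in NR350, against 4.46 in N2 and 4.83 in TU3401, on the control arrays. NR350 stood apart, and VP303 was within the range of N2 and TU3401 (difference 1.47, adjusted p = 0.747). The noncoding gene B0495.11 showed the reverse pattern, at 8.60 and 8.88 in VP303 and between 4.23 and 4.29 on the other 6 arrays. A high value in 1 strain of a pair therefore gave the largest mean differences without separating the pairs, as it did for Y59H11AM.1 (difference 1.88) and msp-78 (2.00), a major sperm protein gene of a family with many similar copies, so that its value is uncertain. Both were highest in NR350 and lowest in N2.

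**Figure D1:**
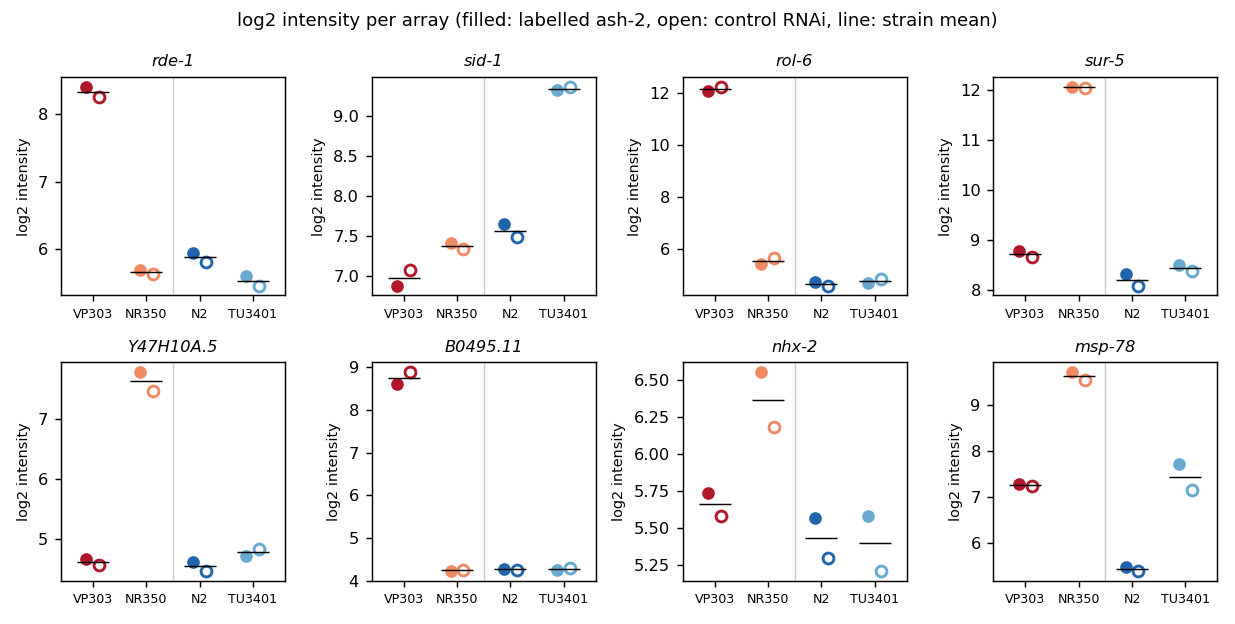
Log2 intensity of 8 construct, marker and single-strain genes on each array, with the strains on the horizontal axis, a filled point for the array labelled ash-2, an open point for the control array and a line for the strain mean. rde-1, rol-6 and B0495.11 are highest in VP303, sur-5, nhx-2, Y47H10A.5 and msp-78 in NR350, and sid-1 in TU3401.

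The main comparison asked which genes differ between the rde-1-based strains and the other strains whichever bacteria were fed. Across all features, 5 were higher and 2 lower in VP303 and NR350 at an adjusted p under 0.05 (0.018% and 0.0072% of the features tested), in a limma fit with RNAi treatment as covariate and strain as a random block. The 5 are sdz-24, dpsm-1, W04A8.4, pmk-2 and pmk-3, and the 2 are sysm-1 and drd-50. At an unadjusted p under 0.05, 1101 features were higher (3.96%) and 751 lower (2.7%). When each strain was reduced to its mean, 2 strains against 2, no feature passed the limma test (smallest adjusted p = 0.835, with 1210 features at an unadjusted p under 0.05), and the calls therefore lean on the arrays within a strain. On simulated data the blocked fit made more false calls than its threshold allows, so an adjusted p near the threshold is weaker than it reads. Leaving out a strain with both its arrays gave 787 called features without VP303, 9 without NR350 and 0 without N2 or without TU3401.

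Among the genes that rose, sdz-24, named as a zygotic transcript that depends on the transcription factor SKN-1, had the widest gap. It read 7.74 in VP303 and 7.68 in NR350, against 6.11 in N2 and 6.16 in TU3401, on the arrays labelled ash-2, and 7.11 in VP303 and 7.56 in NR350, against 6.06 in N2 and 6.02 in TU3401, on the control arrays. All 4 arrays of VP303 and NR350 lay above all 4 of the others, with a difference of 1.43 (SE 0.17, 2.70-fold, limma adjusted p = 0.0354). W04A8.4 had the largest difference of the 5, at 1.51 (SE 0.20, 2.85-fold, adjusted p = 0.0447): 8.95 in VP303 and 9.29 in NR350, against 7.87 in N2 and 7.57 in TU3401, on the arrays labelled ash-2, and 8.93 in VP303 and 9.57 in NR350, against 7.80 in N2 and 7.47 in TU3401, on the control arrays. For dpsm-1 the 4 arrays of VP303 and NR350 spanned 7.16 to 7.46, against 5.75 to 6.41 in N2 and TU3401 (difference 1.27, SE 0.16, 2.42-fold, adjusted p = 0.0447).

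pmk-2 and pmk-3, which encode p38 MAP kinases and share an operon with pmk-1, rose together. On the arrays labelled ash-2, pmk-2 read 7.39 in VP303 and 7.55 in NR350, against 6.44 in N2 and 5.93 in TU3401, and on the control arrays 7.51 in VP303 and 7.88 in NR350, against 6.20 in N2 and 6.29 in TU3401 (difference 1.37, SE 0.18, 2.58-fold, limma adjusted p = 0.0447). pmk-3 read 6.59 in VP303 and 7.06 in NR350, against 5.61 in N2 and 5.55 in TU3401, on the arrays labelled ash-2, and its difference was 1.29 (SE 0.17, 2.45-fold, adjusted p = 0.0447). The groups did not overlap for either gene, which the rule for naming such genes required. All 4 arrays of VP303 and NR350 lay above the other 4 for 2.96% of all features.

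pmk-1, the member of the operon best known for intestinal immunity, also had all 4 arrays of VP303 and NR350 (7.44 to 7.88) above those of N2 and TU3401 (6.24 to 6.86), but its difference of 1.02 (SE 0.19) did not pass (adjusted p = 0.205). The gene islo-1, next to pmk-3 in the gene order and picked for that place after the values were seen, differed by 0.70 (adjusted p = 0.114) with no overlap between the arrays. The next genes on either side differed less: isp-1, beyond islo-1, differed by 0.11 and faah-2, on the side of pmk-1, by 0.13. However, faah-2 lay near the floor (mean log2 4.59), where differences are compressed. Further out on that side, faah-1 (mean log2 5.97) differed by 0.46 (limma adjusted p = 0.669), with no overlap between the arrays. Beyond faah-1, clec-51 differed by -0.15. The kinase sek-1, which acts upstream of PMK-1, differed by 0.57 (adjusted p = 0.67) and was separated with a gap of 0.13.

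sysm-1, an immune gene whose expression is used as a readout of PMK-1 signalling, fell. It read 5.66 in VP303 and 4.74 in NR350, against 7.27 in N2 and 7.53 in TU3401, on the arrays labelled ash-2, and 4.94 in VP303 and 4.75 in NR350, against 6.48 in N2 and 7.40 in TU3401, on the control arrays. The NR350 values were near the floor of the scale, where differences are compressed, and the difference was -2.15 (SE 0.25, 4.44-fold lower, limma adjusted p = 0.0354). drd-50 read 5.64 in VP303 and 5.19 in NR350, against 7.24 in N2 and 7.37 in TU3401, on the arrays labelled ash-2, and 4.90 in VP303 and 5.03 in NR350, against 6.31 in N2 and 6.96 in TU3401, on the control arrays (difference -1.78, SE 0.19, 3.43-fold lower, adjusted p = 0.0354). Both genes lay lower on all 4 arrays of VP303 and NR350 than on any other array. The drd-50 values of VP303 and NR350 (4.90 to 5.64) also lay low on the scale, as did sysm-1 on the VP303 control array. irg-4, another immune response gene, had a difference of -0.52 and a gap of -0.51 but did not pass (adjusted p = 0.491).

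**Figure D2:**
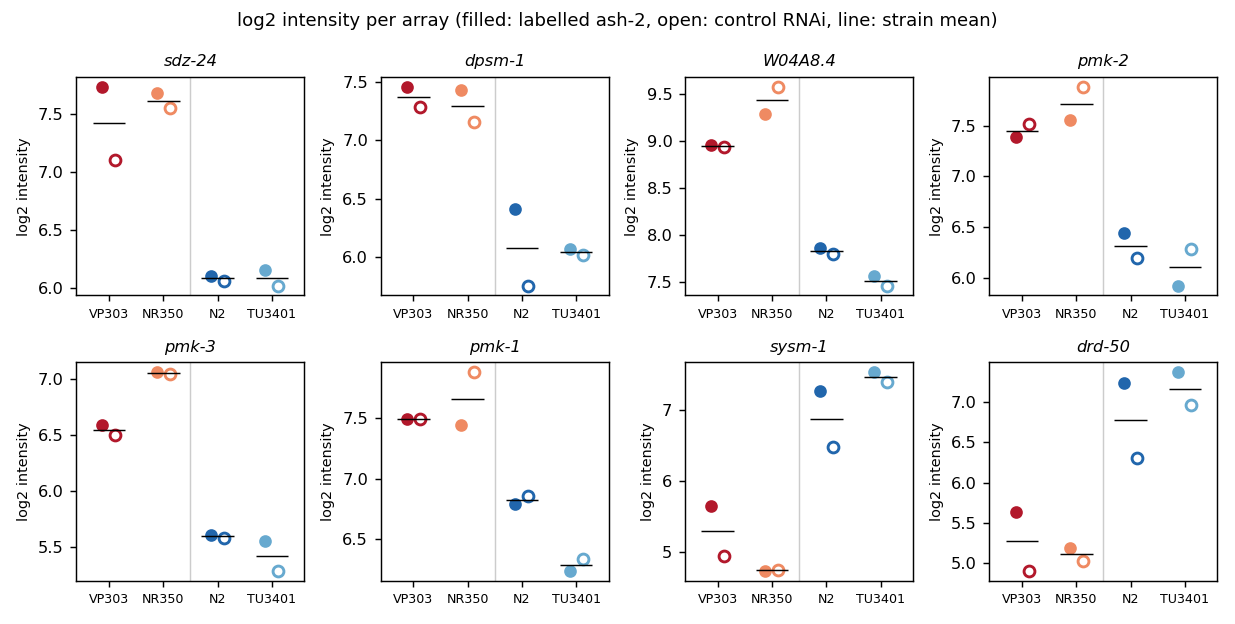
Log2 intensity of the 7 genes that passed the test and of pmk-1 on each array, with VP303 and NR350 left of N2 and TU3401, a filled point for the array labelled ash-2, an open point for the control array and a line for the strain mean. In each panel the 4 points on the left do not overlap with the 4 on the right.

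For the 7 genes the arrays of the pairs did not overlap, which the rule for naming them required. Their sign could therefore not turn with 1 treatment alone or with a strain left out. That it was the same under all 16 alternatives that give a value for each gene is thus no further support. Of the genes, 6 passed the threshold under 8 of the 16 and dpsm-1 under 7.

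The rule itself separated many genes by little. Among all features, 4023 were separated with VP303 and NR350 higher (14.5%) and 5214 with them lower (18.8%). All 4 arrays of one pair of strains lay beyond all 4 of the other for 1687 features (6.07%), 824 higher and 863 lower. The gap, the smallest of the 4 differences between a strain of one pair and a strain of the other, reached 0.5 for 70 features higher (0.252%) and 14 lower (0.0504%), and 1 for 5 higher and 2 lower. Just inside the rule, rrp-1 had strain means of 5.45 in VP303 and 5.37 in NR350, against 5.37 in N2 and TU3401, and just outside it K04C2.2 had 6.68 in VP303 and 6.61 in NR350, against 6.61 in N2 and 6.30 in TU3401.

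The strains of a pair also differed from each other. Over features with a mean log2 above 5, the median size of the difference between the pairs was 0.16, against 0.22 between VP303 and NR350 and 0.18 between N2 and TU3401. A 2-fold difference separated VP303 from NR350 for 365 of these features (4.22%) and N2 from TU3401 for 111 (1.28%), while 90 (1.04%) differed 2-fold between the pairs, 79 of them higher and 11 lower in VP303 and NR350. A difference between pairs averages 2 strains on each side and is smaller by construction than one between single strains, so these sizes are not like for like. Of these 90, 57 had separated strain means.

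Beyond the called genes, the widest gaps higher in VP303 and NR350 included 2 genes of detoxification. ugt-62, a UDP-glucuronosyltransferase, spanned 8.03 to 8.55 in VP303 and NR350, against 6.61 to 7.22 in N2 and TU3401 (2.39-fold, limma adjusted p = 0.144), and gsto-1, an omega-class glutathione transferase, spanned 7.09 to 8.33, against 5.96 to 6.36 (2.79-fold, adjusted p = 0.144). fipr-21, a gene related to fungus-induced peptides, spanned 7.97 to 8.55, against 6.89 to 7.36 (2.21-fold, adjusted p = 0.144). None of these passed. Their groups did not overlap, which the rule for choosing them required and which held for 6.07% of all features in either direction.

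C48E7.1 spanned 10.02 to 10.73 in VP303 and NR350, against 8.66 to 9.19 in N2 and TU3401 (2.46-fold, limma adjusted p = 0.104), B0205.13 spanned 5.57 to 6.58, against 4.85 to 4.97, below the log2 of 5 used as a limit for dim genes (difference 1.25, adjusted p = 0.0788, passing that limit only through VP303 and NR350), and F19B2.5 spanned 7.70 to 8.46, against 6.98 to 7.29 (1.93-fold, adjusted p = 0.366). The remaining 3 were gpi-1, glucose-6-phosphate isomerase of glycolysis (8.95 to 9.11, against 7.95 to 8.24), aex-6, a Rab27 GTPase of vesicle release (7.53 to 7.83, against 6.46 to 6.85), and ndrr-1 (8.06 to 8.63, against 7.17 to 7.37). Their differences were 0.91, 0.97 and 1.01, with adjusted p between 0.128 and 0.136. These 3 genes lie on the same part of chromosome I as dpsm-1.

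On the lower side, none of the other genes with the widest gaps passed. spp-4, a saposin-like gene, spanned 8.03 to 8.75 in VP303 and NR350, against 9.03 to 9.78 in N2 and TU3401 (difference -0.996, limma adjusted p = 0.192), and the C-type lectin clec-190 spanned 4.61 to 5.34, against 5.92 to 6.51 (-1.21, adjusted p = 0.114). sgnh-1, an SGNH hydrolase, differed by -1.16 (adjusted p = 0.436), the pseudogene F02H6.4 by -0.94 (0.144), C45H4.14 by -0.94 (0.248), C07A9.9 by -0.70 (0.366) and Y62H9A.4 by -0.64 (0.488), where the values in brackets are adjusted p-values. The 5 genes with the narrowest gaps of the set were ctns-1, the cystine transporter cystinosin (-0.74, adjusted p = 0.566), fbxb-22, an F-box gene (-0.62, 0.497), gpd-1, glyceraldehyde-3-phosphate dehydrogenase (-0.51, 0.593), the T-box factor tbx-9 (-0.55, 0.491) and T24D1.3 (-0.53, 0.593). For all of them the arrays of the pairs did not overlap, which the rule for choosing them required.

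**Figure D3:**
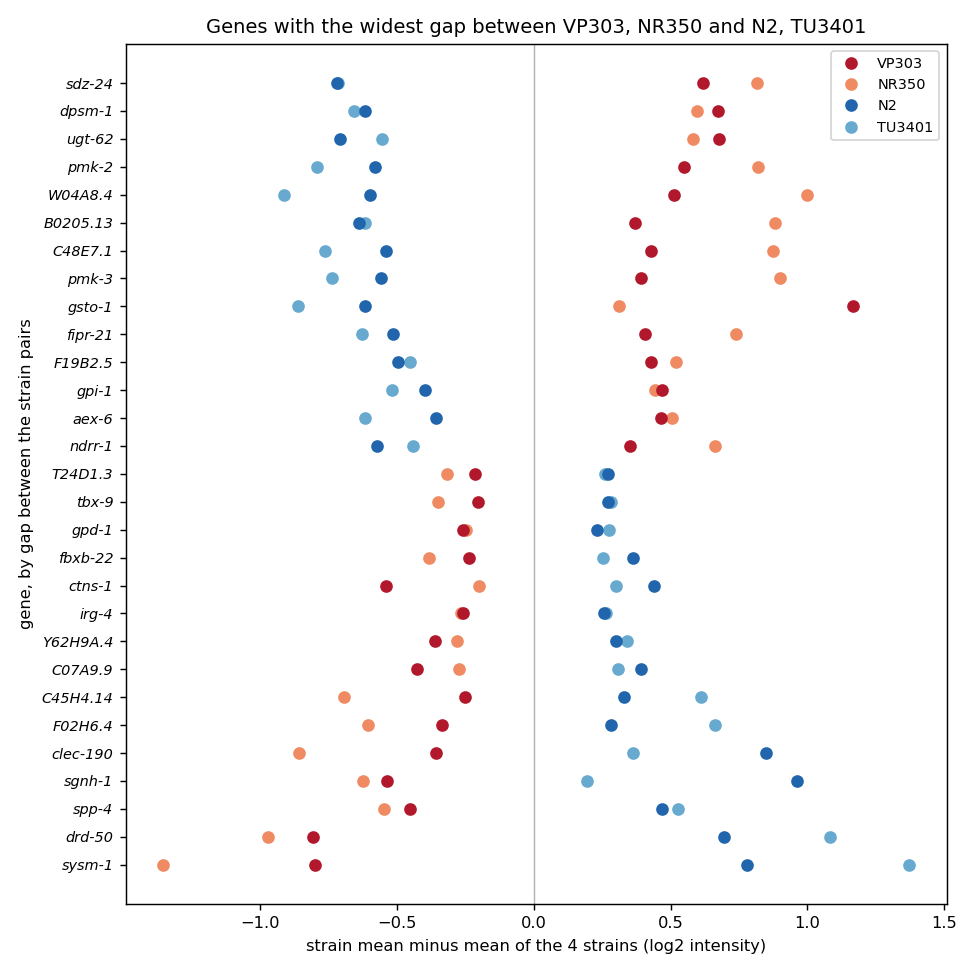
Strain means of the 14 genes higher and 15 genes lower in VP303 and NR350 with the widest gaps, each as its distance in log2 intensity from the mean of the 4 strains, ordered down the page from the widest positive to the widest negative gap. rol-6 is left out because its VP303 value would stretch the axis. The distance between the 2 colour pairs is wide for sdz-24 and sysm-1 and narrows to 0.47 for T24D1.3.

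The places of genes with a wide gap were read along the chromosomes. Among protein-coding genes with 1 symbol and a mean log2 above 5, chromosome I, with 1470 of 7685 such genes, held 24 of the 66 (0.859% of 7685) with a gap of at least 0.5 higher in VP303 and NR350 and 0 of the 12 (0.156%) lower. The X chromosome, with 1010 genes, held 13 higher and 4 lower, so that 1.63% of the genes on I and 1.68% on X had such a gap in either direction. The gene order of the RefSeq assembly WBcel235 was then read with a running median over 31 neighbouring genes, for each strain apart, a description chosen after the values were seen. VP303 and NR350 were each set against the mean of N2 and TU3401, so the differences share these 4 arrays.

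In VP303, a run of 108 genes near the end of the gene order of chromosome I, T27F6.6 to gpap-1, lay above 0.3 in the running median. Its genes were higher than in N2 and TU3401 by a median of 0.52 (1.43-fold), and 107 of the 108 were above 0. In NR350, 3 runs lay in the same region: R05D7.7 to T26E3.4 with 28 genes and a median of 0.56, W05H12.1 to rhgf-3 with 94 genes and a median of 0.78, and tep-1 to psf-2 with 12 genes and a median of 0.40. The differences that chose each run also set its median and the count above 0, so these values are a description. The ends of a run are known only to within the window.

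The runs of the strains overlapped in part. The 56 genes in the VP303 run alone had a median of 0.50 in VP303, with -0.12 in NR350. The 82 genes in the NR350 runs alone had a median of 0.00 in VP303, with 0.74 in NR350. Over the 52 genes inside runs of both strains, medians were 0.53 in VP303 (1.45-fold) and 0.64 in NR350 (1.55-fold), against -0.04 for TU3401 minus N2. Medians were alike on both sets of arrays, at 0.49 in VP303 and 0.59 in NR350 on those labelled ash-2 and 0.55 in VP303 and 0.66 in NR350 on the control arrays.

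Of the 52 genes, 48 were separated with VP303 and NR350 higher and 0 lower, and 15 had a gap of at least 0.5. The strain means that chose the runs also set these counts, so they are a description, and the 18.2% of expressed protein-coding genes separated in that direction is no comparison for them. The 52 form a first stretch of 19 genes, T27F6.6 to T26E3.4, that holds dpsm-1 and atp-1, a subunit of ATP synthase, and a second of 33, W05H12.1 to gpap-1, in which 32 were separated. gpi-1, aex-6 and ndrr-1 lie in the second, with glp-4, a valyl tRNA synthetase (difference 0.77), spr-5, a histone H3K4 demethylase (0.55), and cox-4, a subunit of cytochrome oxidase (0.90). W04A8.4 lies in a run of NR350 alone, and its difference of 1.51 stood above those of its nearest expressed neighbours, W09G3.8 (0.56), W09G3.6 (0.44), W09G3.1 (-0.12), W04A8.1 (0.04), W04A8.6 (0.53) and taf-1 (0.24).

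The same reading gave 2 runs of NR350 on the X chromosome, F53B3.6 to K10B3.5 with 13 genes (median 0.28) and ZC373.2 to sex-1 with 12 (0.29), and 1 run below -0.3 on chromosome II, C16C8.5 to M151.3, with 12 genes (-0.18). The highest running median away from chromosome I was 0.33 in VP303 and 0.43 in NR350, both on X, against peaks of 0.67 in VP303 and 0.98 in NR350 on chromosome I, and on chromosome I outside the runs the median difference was -0.02 in VP303 and -0.08 in NR350. The X chromosome stood above the autosomes as a whole, with a median difference of 0.14 between the pairs and 46.5% of its 1010 genes separated, against 37.8% of all. On X, 133 genes had all 4 arrays of VP303 and NR350 above the other 4, which 6.19% of genes on all chromosomes did, and 38 had them below, which 5.19% did. Around rde-1 on chromosome V, 40.0% of the 50 nearest expressed genes were separated, 36% of the 100 nearest and 34.5% of the 200 nearest.

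**Figure D4:**
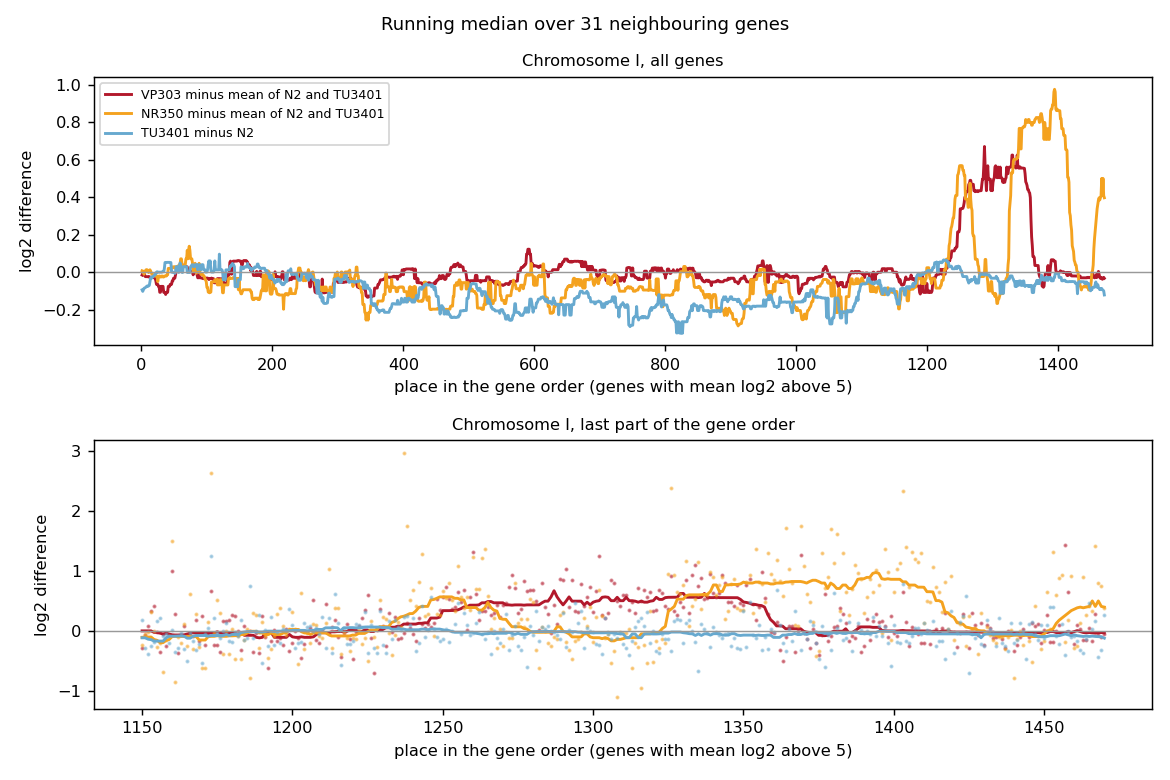
Running median over 31 neighbouring expressed genes on chromosome I, in log2 units against the place in the gene order, for VP303 and for NR350 minus the mean of N2 and TU3401 and for TU3401 minus N2, over all genes (top) and the last part of the order with single genes as points (bottom). VP303 and NR350 leave 0 over runs of different extent, while TU3401 minus N2 stays close to 0 there.

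The named gene lists describe which kinds of genes were separated. Over all genes with 1 symbol, 14.5% were separated with VP303 and NR350 higher and 18.9% with them lower, with a median difference of -0.01. sysm-1, in the list of innate immunity effectors, was the only gene of any list below that passed the limma test.

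Of 153 cuticle collagens (col), 67 were separated higher (43.8%) and 11 lower, with a median difference of 0.09. col-19, an adult collagen, read between 11.01 and 11.46 in VP303 and NR350, against 10.36 to 10.72 in N2 and TU3401 (difference 0.79, limma adjusted p = 0.11). col-124 (0.95, adjusted p = 0.14), col-94 (1.30, 0.49) and col-81 (2.18, 0.39) did not pass, and collagens with similar copies are uncertain. Of 19 body shape collagens, 6 were separated higher and 0 lower (median 0.33), among them rol-6, a marker of VP303, bli-6 (1.15), dpy-13 (1.06) and dpy-2 (0.45).

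Moulting genes had 7 of 15 higher and 0 lower (median 0.26), with noah-1 and noah-2, components of the apical matrix, at 0.89 and 0.86, mlt-8 at 0.92 and lin-42, the Period homologue that times moults, at 0.47. Epidermis markers had 4 of 8 higher and 0 lower (median 0.05): col-19, the GATA factor elt-3 (0.54), the VP303 marker rol-6 and dpy-7, which lay near the floor (0.09). Hedgehog-related genes had 12 higher and 5 lower of 56, with grd-5 at 0.64. Astacin proteases had 6 higher and 4 lower of 36 (median 0.00), and caenacins and epidermal peptides 8 higher and 3 lower of 46, with cnc-8 at 0.61.

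Of 9 intestine markers, 5 were separated higher and 0 lower (median 0.25). Their median level was 7.96 in VP303 and 7.91 in NR350, against 7.62 in N2 and 7.91 in TU3401, so by that level only N2 stood below. elt-2, the GATA factor of the intestine, spanned 6.64 to 6.98 in VP303 and NR350, against 6.01 to 6.24 in N2 and TU3401 (difference 0.65, limma adjusted p = 0.33), and ifb-2, an intestinal filament, differed by 0.88 with the higher values in NR350, whose RNAi acts in muscle. Fat metabolism genes had 10 of 24 higher and 2 lower, with the elongases elo-5 (0.52) and elo-6 (0.47) and fatty acid synthase fasn-1 (0.52) higher and acdh-2 (-0.81) lower.

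UDP-glucuronosyltransferases had 20 of 67 higher (29.9%) and 8 lower, including ugt-50 (0.70), ugt-25 (0.70) and ugt-47 (0.58). Glutathione S-transferases had 8 higher and 4 lower of 43, with gst-6 at 0.54, and cytochromes P450 12 higher and 14 lower of 74, with cyp-33C8 at 0.76 and cyp-35C1 at -0.81. Nuclear hormone receptors had 53 higher and 31 lower of 271, with nhr-114 at 0.69. Transthyretin-related genes had 16 higher and 12 lower of 58, with ttr-18 at 0.63 and ttr-42 at -0.57.

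Markers of other tissues moved as follows. Body wall muscle markers had a median of 0.40, with 2 of 10 separated higher and 0 lower. Their median level was 8.46 in VP303 and 9.86 in NR350, against 8.49 in N2 and 8.74 in TU3401, so only NR350 stood above. One of the 2 separated genes was mup-2, troponin T, with NR350 well above the other strains (7.13 to 7.25 in VP303 and 8.18 to 8.31 in NR350, against 6.94 to 7.08 in N2 and TU3401). Neuron markers had 1 of 11 higher and 0 lower, and FLP and NLP neuropeptides 24 higher and 6 lower of 109, with nlp-15 at 0.57 and flp-10 at 0.45. Insulin-like peptides had 7 higher and 6 lower of 40, with ins-29 at 0.67.

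Of 14 oocyte and eggshell genes, 0 were separated higher and 10 lower (71.4%, median -0.19), though every difference was under 0.5. oma-1, an RNA-binding protein of oocyte maturation, read 9.13 in VP303 and 9.21 in NR350, against 9.78 in both N2 and TU3401, on the arrays labelled ash-2, and 9.27 in VP303 and 9.11 in NR350, against 9.47 in N2 and 9.57 in TU3401, on the control arrays (difference -0.47, limma adjusted p = 0.58). pos-1, a maternal RNA-binding protein, differed by -0.40, the eggshell receptor egg-2 by -0.25 and the chitin synthase chs-1 by -0.35.

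The yolk protein genes had 0 of 5 higher and 3 lower (vit-1 -0.29, vit-4 -0.30, vit-5 -0.16), and copies in this family are uncertain. Their gaps were -0.23 for vit-1, -0.05 for vit-4 and -0.01 for vit-5, and for all 3 the arrays of the pairs overlapped. The list's median level was 11.42 in VP303 and 11.37 in NR350, against 11.72 in N2 and 11.42 in TU3401, so only N2 stood apart. Germ line markers had 0 higher and 2 lower of 10 (20%, against 18.9% of all genes), with a list median of 0.03. The 2 were the Notch receptor glp-1 at -0.49 and htp-1 at -0.15, and for both the arrays of the pairs overlapped. Sperm genes had 3 higher and 1 lower of 10, most of them near the floor, and major sperm proteins 0 separated of 4.

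Of 66 mitochondrial ribosomal proteins, 1 was separated higher and 24 lower (36.4%, median -0.11), with mrpl-40 at -0.58 and mrps-34 at -0.52. Their median level was 6.94 in VP303 and 6.62 in NR350, against 6.91 in N2 and 6.87 in TU3401, so only NR350 stood below. Proteasome subunits had 0 higher and 9 lower of 33 (median -0.07), with rpn-8 at -0.32. Cytosolic ribosomal proteins had 6 higher and 4 lower of 72, including rpl-31, which lies in the second shared stretch of chromosome I, at 0.39. Histones had 2 higher and 1 lower of 9, with his-74 at -0.33.

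**Figure D5:**
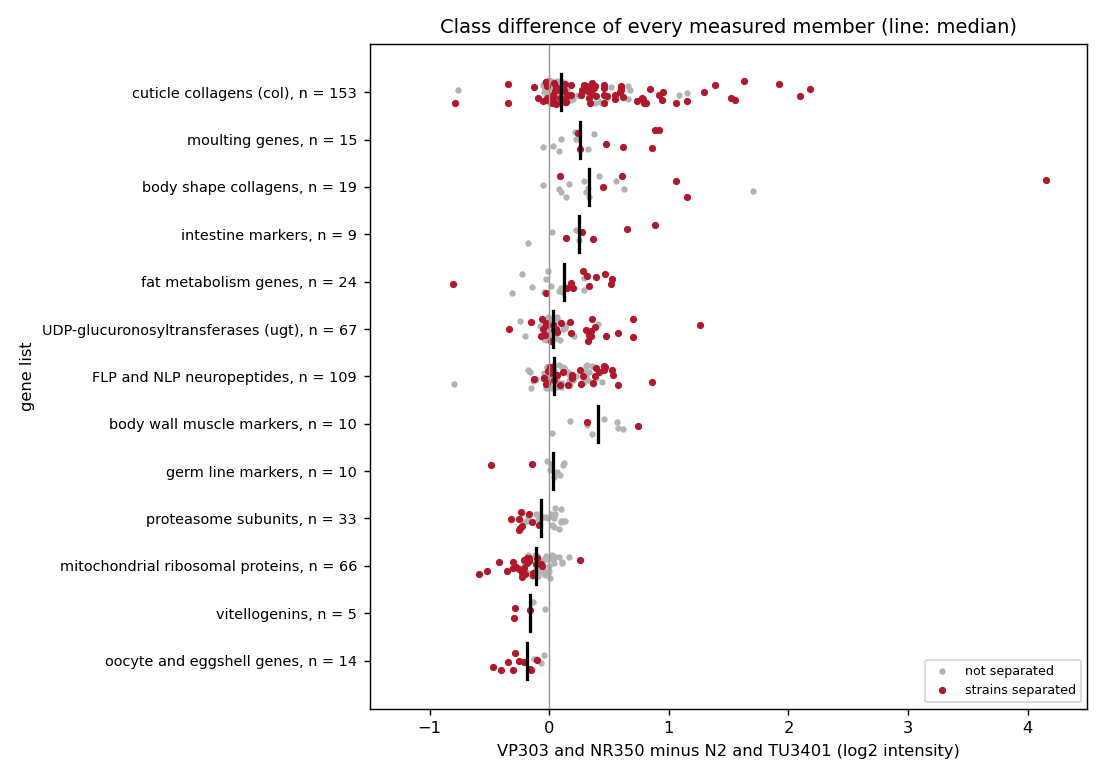
Difference between the pairs, VP303 and NR350 minus N2 and TU3401 in log2 intensity, for every measured member of 13 gene lists, with red points for separated members, grey points for the rest and a black line for the list's median. Cuticle collagens reach from below 0 to 2.18, rol-6 stands at 4.16, and the oocyte and eggshell genes all lie below 0.

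Of 34 genes of the RNAi machinery, 4 were separated higher and 4 lower. rde-11, which acts with RDE-10 in the decay of targets, spanned 7.63 to 8.16 in VP303 and NR350, against 8.30 to 8.67 in N2 and TU3401 (difference -0.64, limma adjusted p = 0.49), and rde-4, the double-stranded RNA binding partner of Dicer, spanned 6.86 to 7.25, against 7.33 to 7.68 (-0.48, adjusted p = 0.62). Neither overlapped between the pairs, but both were named for having the widest gaps of the list. The arrays did not overlap for 3 of the 34 genes (8.8%), against 11.1% of genes with 1 symbol and a mean log2 above 5. nrde-2, of nuclear RNAi, differed by 0.26.

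Argonautes other than rde-1 had 7 of 21 separated higher and 2 lower. alg-1, the Argonaute of microRNAs, spanned 7.48 to 8.17 in VP303 and NR350, against 6.90 to 7.38 in N2 and TU3401 (difference 0.61, limma adjusted p = 0.64). wago-1 differed by 0.22 and hrde-1, of inherited silencing in the germ line, by 0.23. Of 5 reported targets of ERGO-1 small RNAs, C44B11.6 was separated higher (difference 0.17) and E01G4.5 lower (-0.34).

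Innate immunity effectors had 3 higher and 5 lower of 30, with pmk-1, sek-1 and the lysozyme lys-1 (0.72) on the higher side and sysm-1 and irg-4 on the lower. Lysozymes had 2 higher and 1 lower of 16, C-type lectins 29 higher and 37 lower of 247, with clec-83 at 0.83 and clec-186 at -0.66, and pals genes 4 higher and 7 lower of 37, all near the floor. Heat shock chaperones had 7 of 15 higher and 0 lower (median 0.11), with hsp-3, a BiP chaperone of the endoplasmic reticulum, at 0.40 and the mitochondrial hsp-6 at 0.40. DAF-16 and stress reporters had 4 higher and 1 lower of 19, with gst-4 at 0.47 and gpd-2 at 0.64.

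The machinery of histone H3K4 methylation, to which ash-2 belongs, had 5 higher and 4 lower of 16, with spr-5 at 0.55 and the methyltransferase gene set-17 at -0.46. ash-2 itself differed by 0.26 between the pairs. Among large families with most members near the floor, F-box genes had 37 higher and 72 lower of 340, MATH and BTB domain genes 13 higher and 22 lower of 102, and the chemoreceptor families 90 higher and 263 lower of 1129. Only 11 of these 1129 had a mean log2 above 5, and the list, taken by the name stem sr, includes srgp-1 and srrt-1, which are not receptors. Promoter genes of the constructs had 1 of 4 higher, nhx-2.

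The second comparison asked whether the difference between the arrays labelled ash-2 and the control arrays depended on the strain pair. No feature passed the limma test (0 of 27792, smallest adjusted p = 0.997, with 1053 features, 3.79%, at an unadjusted p under 0.05), and the responses of both strains of a pair lay beyond both of the other for 9010 features (32.4%). Leaving out N2 gave 32 features past the threshold, leaving out TU3401 8, leaving out VP303 3 and leaving out NR350 0.

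The widest gaps in response, none past the test, included both signs. Y54G2A.70 was lower on the array labelled ash-2 by -1.53 in VP303 and -1.50 in NR350, against -0.45 in N2 and 0.01 in TU3401. ND4L, a mitochondrially encoded subunit of complex I, had responses of -0.27 in VP303 and -0.77 in NR350, against 1.41 in N2 and 0.70 in TU3401, and Y105E8A.36 had -0.33 in VP303 and 0.00 in NR350, against 1.02 in N2 and 1.17 in TU3401. ZK265.11 and Y54G2A.26 completed that side. On the other side, C10B5.3, phat-8, afmd-2, immp-1 and Y54F10BM.13 were lower on the array labelled ash-2 in N2 and TU3401 and lay between -0.25 and 0.15 in VP303 and NR350, as for immp-1, at 0.07 in VP303 and 0.00 in NR350, against -0.59 in N2 and -0.73 in TU3401.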

How the data were processed

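Per the labels' protocols, RNA of young adult animals was isolated with TRIzol and prepared with a whole-transcript cDNA kit. The authors used Affymetrix GeneChip Command Console 2.0 for the scans and GeneSpring GX 11.0.2 for the profiles, per the series' design text, and RMA, per the submitters' processing notes. RMA removes background, brings the arrays to common quantiles and combines the probes of a feature. The deposited values are intensities on a linear scale, from 18 to 12880, and array medians lie between 21.1 and 21.6. Neither the RMA version nor the genome build of the array is known from the sources used here, so no coordinates are printed.

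Log2 was computed from the deposited intensity as it stands, for every feature. Of 27792 features, 25546 had exactly 1 symbol in the platform annotation, 646 had several and 1600 had none. RefSeq's table for WBcel235, in which 25495 were found, gave names, chromosomes, biotypes and gene order. Where a gene had more than 1 feature, the brightest was taken, and features with several symbols are not named.

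The strain pair and the RNAi treatment were fitted to the 8 arrays with limma 3.58.1 in R 4.3.3 (lmFit, eBayes with a trend, two-sided), with strain as a random block (duplicateCorrelation, consensus correlation 0.27, 5 residual degrees of freedom). P-values were adjusted over all features by Benjamini-Hochberg, with a threshold of 0.05. The block treats the strains of a pair as repeats. On simulated data its calls held more false ones than the threshold allows, while the fit on strain means (2 residual degrees of freedom) recovered few changes. The response fit had strain as a fixed block and 2 residual degrees of freedom. As a check on the block, deviations from the treatment means over 8648 features correlated between the arrays of a strain at 0.574 in VP303, 0.839 in NR350, 0.684 in N2 and 0.525 in TU3401, and no control array was closer to another strain.

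Named genes are the construct and marker genes, the 15 widest gaps per direction among genes with 1 symbol, a mean log2 above 5 and no overlap between the arrays of the pairs, the 5 widest gaps in response per direction, up to 4 members per list and the 3 largest differences per direction without separation. Lists are described by counts and medians, without a test. Of the genes named singly in them, 14 were not matched. The members, the lists and the rule were chosen with earlier results of these data known. Alternatives covered the block, the covariate, each treatment alone, 2 other normalizations, filters, subtraction of 16, the eBayes prior, the threshold and leaving out each strain. Precision is limited by the few arrays.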

Additional observations from a re-analysis of the deposited data

How the results depend on the processing

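The 7 calls between the strain pairs became 0 with strain means, 2 against 2, with the control arrays only, with the arrays labelled ash-2 only, with features of mean log2 above 5 only and with eBayes without a trend, and the other settings gave between 5 and 9. At an unadjusted p under 0.05, the strain means still gave 1210 features. Leaving out a strain moved the count between 0 (without N2 or TU3401) and 787 (without VP303), and for the response between 0 (without NR350) and 32 (without N2), with 0 under the other settings. The 9237 separated features fell to 1687 when all 4 arrays had to lie beyond the other 4 and to 84 with a gap of at least 0.5, and numbered 9323 to 9612 with 1 treatment alone or another normalization. Some of these settings held fewer arrays or features than the main fit and others held all of them, and the cause of the moves was not tested.

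Leaving out 1 strain turned the sign of 8 named differences. That of rde-1 ranged from -0.038 without VP303 to 2.63 without NR350 (past the threshold there), B0495.11 from -0.028 without VP303 to 4.47 without NR350, hlh-1 from -0.064 without VP303 to 0.10 without NR350, Y47H10A.5 from -0.041 without NR350 to 2.98 without VP303 and myo-2 from -0.42 without NR350 to 0.79 without VP303. unc-119 ranged from -0.27 without VP303 to 0.15 without NR350, saeg-2 from -2.02 without N2 to 0.025 without TU3401 and Y54G2A.10 from -1.93 without VP303 to 0.052 without NR350. hlh-1 also turned to -0.012 with control arrays only and -0.018 with quantile normalization. ppw-1 turned to -0.034 and pals-12 to -0.028 with control arrays only and nas-39 to -0.022 with the arrays labelled ash-2 only, all 3 near the floor. Of the other comparisons of a named gene under an alternative, 2745 kept direction and side of the threshold, 62 passed it where the main fit did not and 57 no longer passed. Quantile normalization turned the median of the RNA interference machinery to -0.05, and those of cytochromes P450, histones and pals genes to values under 0.01. Log2 of the value minus 16 widened differences of dim genes and moved list medians both ways, such as the cuticle collagens to 0.21 and the chemoreceptors to -0.05.

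The labels carry no replicate numbers, and the arrays of a strain were tied by the strain block. Without a strain block 8 features passed. Signal near the floor limits the dim families, and 1 array per strain and treatment limits every call.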

Other observations

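pud-4 and saeg-2, with Y54G2A.10, had the largest mean differences on the lower side without separating the pairs. pud-4 read 5.1 in VP303 and 4.35 in NR350, against 6.56 in N2 and 4.79 in TU3401, on the arrays labelled ash-2, so that N2 stood above the other strains. saeg-2 read 6.80 in VP303 and 6.74 in NR350, against 6.61 in N2 and 8.70 in TU3401, on the arrays labelled ash-2, so that TU3401 stood above the others. Y54G2A.10 read 7.55 in VP303 and 6.08 in NR350, against 7.79 in N2 and 7.67 in TU3401, on the arrays labelled ash-2, and 9.77 in VP303 and 7.26 in NR350, against 11.01 in N2 and 7.95 in TU3401, on the control arrays, where the strains differed most.

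On chromosome III, 42 of 1432 expressed protein-coding genes had all 4 arrays of VP303 and NR350 above the other 4 and 87 had them below. Over all chromosomes, 6.19% of 7685 such genes had these arrays above and 5.19% had them below. The median difference between the pairs lay between -0.03 and -0.01 on chromosomes I to V.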
